A study of Drosophila melanogaster with 2 samples.

Results

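Aminoacyl-tRNA synthetases are the enzymes that attach each amino acid to its own transfer RNA. Their genes were taken as the protein-coding genes of the Ensembl BDGP6 annotation whose symbol is 1 or 2 amino acid codes followed by RS, with or without the suffix -m. This gave 33 of 13986 protein-coding genes. A gene was counted as having a promoter peak where the summit of a peak lay within 500 bp of any of its annotated transcription start sites (TSSs). The material was chromatin from whole Drosophila melanogaster embryos aged 0 to 24 h, and all samples carried a fusion of the sunspot (ssp) protein with enhanced green fluorescent protein. The antibody recognised the fluorescent part, so the peaks mark the fusion and not the untagged protein. There was 1 group, ssp-eGFP embryo, with 2 biological replicates of the same strain. All tissues and stages of those hours were pooled, and no embryos of another genotype or treatment were available, so the synthetase genes are described beside all protein-coding genes and beside other translation genes.

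Each synthetase recognises an amino acid and the tRNAs that carry it, and the charged tRNA is then handed to the ribosome. Animal cells translate in the cytosol and in the mitochondrion, and for many amino acids the nucleus holds a separate gene for each place. The suffix -m marks the mitochondrial enzyme, while some genes without it also supply the mitochondrion. In flies the genes are needed in every growing cell. Ssp is a nuclear protein that has been studied in Wingless signalling and in endoreplication.

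The promoter DNA that carried the peaks is shown first for 6 of the genes, the 4 with the highest signal and 2 of the mitochondrial genes, and for LeuRS and TyrRS, which had a neighbour on the opposite strand but no peak. Each stretch is sequence of the dm6 assembly, read from the RefSeq genome of the same release, 5′ to 3′ on the strand of the synthetase gene, and lies outside annotated exons. For GlnRS it is chr3R:25265722-25265843 on the minus strand, the whole gap between its TSS and that of RIOK2. For TrpRS it is chr3R:9266905-9267018 on the minus strand, likewise the whole gap to Vps16A. The others are 151 bp long. Those with a peak are centred on the summit: ThrRS at chr2L:12103562-12103712 (plus), ArgRS at chrX:15844243-15844393 (minus), ProRS-m at chr3L:2651900-2652050 (minus) and ArgRS-m at chr3R:7886807-7886957 (plus). LeuRS at chr2L:3514689-3514839 (minus) and TyrRS at chr3L:16419374-16419524 (minus) are taken from between their TSS and that of the neighbour. Capitals mark a match, on either strand, to 1 of the 12 motifs described further on.
GlnRS: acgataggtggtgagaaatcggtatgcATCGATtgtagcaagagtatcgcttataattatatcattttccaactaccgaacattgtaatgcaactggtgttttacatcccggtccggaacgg
ThrRS: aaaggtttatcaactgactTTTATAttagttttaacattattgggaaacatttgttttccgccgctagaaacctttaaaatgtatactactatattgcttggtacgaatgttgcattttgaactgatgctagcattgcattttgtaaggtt
TrpRS: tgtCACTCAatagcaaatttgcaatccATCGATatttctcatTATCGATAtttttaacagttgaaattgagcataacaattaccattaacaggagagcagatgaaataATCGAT
ArgRS: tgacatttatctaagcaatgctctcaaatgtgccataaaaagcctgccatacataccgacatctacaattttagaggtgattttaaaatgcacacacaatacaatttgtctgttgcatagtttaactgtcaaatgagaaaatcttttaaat
ProRS-m: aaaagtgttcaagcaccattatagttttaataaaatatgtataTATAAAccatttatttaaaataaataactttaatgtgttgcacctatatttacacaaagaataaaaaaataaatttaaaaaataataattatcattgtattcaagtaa
ArgRS-m: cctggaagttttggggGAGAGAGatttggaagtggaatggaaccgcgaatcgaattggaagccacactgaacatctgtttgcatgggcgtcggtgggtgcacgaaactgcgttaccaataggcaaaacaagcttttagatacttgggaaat
LeuRS: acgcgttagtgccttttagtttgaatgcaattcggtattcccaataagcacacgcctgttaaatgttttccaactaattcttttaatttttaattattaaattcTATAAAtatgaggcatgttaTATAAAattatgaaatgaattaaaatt
TyrRS: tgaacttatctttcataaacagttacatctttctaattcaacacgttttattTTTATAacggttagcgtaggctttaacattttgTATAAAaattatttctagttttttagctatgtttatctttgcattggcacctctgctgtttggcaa

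In GlnRS the capitals are the core of the DNA replication-related element (DRE), ATCGAT. TrpRS held that core 3 times, once within the full element TATCGATA, and the capitals nearest its 5′ end, CACTCA, are the reverse complement of the zeste motif TGAGTG. ThrRS and ProRS-m held the TATA motif TATAAA, ThrRS as its reverse complement TTTATA, and ArgRS-m held the GAGA motif GAGAGAG. ArgRS, with the fourth highest signal, held no match. LeuRS and TyrRS held the TATA motif 2 times each. The stretch of ProRS-m was 16.6% G or C and that of ArgRS-m was 47.7%.

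Of the 33 synthetase genes, 13 (39.4%) had a promoter peak in the list made from both replicates, against 21.3% of all protein-coding genes. They were unevenly spread over the enzymes. Among the 18 genes without the suffix, 10 had a peak: GlnRS, ThrRS, TrpRS, ArgRS, GluProRS, SerRS, IleRS, AsnRS, AspRS and MetRS. Among the 15 mitochondrial genes, 3 had a peak: ProRS-m, ArgRS-m and CysRS-m. For 14 amino acids the rule found both a gene without the suffix and a mitochondrial gene. Both had a peak for 2 of these amino acids, arginine and proline, where the gene without the suffix is the bifunctional GluProRS, and for cysteine only the mitochondrial gene had one. Another 5 genes without the suffix had no -m counterpart (GlnRS, GlyRS, HisRS, LysRS and ThrRS), and 2 of them, GlnRS and ThrRS, had a peak. These are counts of single genes with no replicate error of their own, and no test was made on them.

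GlnRS, which charges the glutamine tRNAs, had the strongest peak of the 13. Its signal, the value the authors' peak caller gave to the peak, was 3607 in the combined list (chr3R:25265538-25266061), which put it at rank 18 of 4948 peaks. Replicates 1 and 2 gave 2019 and 1593 in their own lists. The summit lay 64 bp upstream of the GlnRS TSS and 59 bp upstream of RIOK2, a kinase of small ribosomal subunit maturation, and the replicate summits were 2 bp apart. The peak therefore stood in the gap that both genes share, marginally closer to RIOK2.

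ThrRS and TrpRS, for threonine and tryptophan, had nearly equal signals. ThrRS had 1371 (chr2L:12103331-12103851, rank 173), with 691 in replicate 1 and 668 in replicate 2. TrpRS had 1370 (chr3R:9266777-9267131, rank 174), with 711 in replicate 1 and 665 in replicate 2. The ThrRS summit lay 114 bp upstream of its TSS and 352 bp upstream of Patsas, so ThrRS was the nearer gene. The TrpRS summit lay 56 bp upstream, with Vps16A, a subunit of a vacuolar tethering complex, 59 bp away on the other side. ArgRS, for arginine, followed with 968 (chrX:15844090-15844524, rank 268) and with 506 in replicate 1 and 469 in replicate 2. Its summit was 173 bp upstream of ArgRS and 158 bp upstream of CG8578. In these 4 genes the replicates gave signals of the same order. Each value was higher in replicate 1, but the lists may differ in scale. By rank within the replicate 1 and replicate 2 lists, GlnRS was at 11 and 28, ThrRS at 183 and 171, TrpRS at 179 and 173 and ArgRS at 268 and 259. Only GlnRS thus stood higher in replicate 1 by rank.

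GluProRS and SerRS formed a middle pair. GluProRS, 1 polypeptide that charges both glutamate and proline tRNAs, had a signal of 542 (chr3R:23958373-23958663, rank 479), with 269 in replicate 1 and 294 in replicate 2. SerRS, for serine, had 521 (chr2L:3037228-3037534, rank 505), with 268 in replicate 1 and 252 in replicate 2. The GluProRS summit was 100 bp upstream of its TSS and 160 bp upstream of AP-1sigma, a clathrin adaptor subunit. SerRS was the only one of the 13 with its summit downstream, at 6 bp, and its TSS lies 8 bp from that of CG17260. The replicate summits of SerRS lay on either side, at 26 bp downstream and 24 bp upstream.

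IleRS, for isoleucine, had a signal of 272 (chr3L:22288287-22288702, rank 1102), with 157 in replicate 1 and 117 in replicate 2. Its summit lay 170 bp upstream of IleRS and 300 bp upstream of Hem, a subunit of the actin regulator SCAR. ProRS-m, the mitochondrial proline enzyme, had 256 (chr3L:2651926-2652055, rank 1163), with 136 in replicate 1 and 118 in replicate 2. It was the only mitochondrial gene whose peak overlapped a peak in both replicate lists. The summit was 125 bp upstream of ProRS-m and 113 bp upstream of both Snup, the fly snurportin, and CG42304. AsnRS, for asparagine, had 125 (chr2L:19131825-19132240, rank 2645), with 52.5 in replicate 1 and 69.2 in replicate 2, and a second, weaker peak of 36.1 at 280 bp upstream. Its first summit was 79 bp upstream of AsnRS and 290 bp upstream of the dynactin subunit gene DCTN6-p27, and the replicate summits were 56 bp apart, the widest shift among the 9 genes with a peak in both lists.

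The other 4 genes with a peak had less backing in the single replicates. AspRS, for aspartate, had 123 (chr2R:12879718-12880133, rank 2716) and overlapped a peak in replicate 2 alone, where it had 72.1. In replicate 1 no entry lay within 500 bp of an AspRS TSS even before the reproducibility threshold. The peak was absent from the authors' conservative list. Its summit lay 358 bp upstream of the nearest AspRS TSS and 128 bp upstream of Nmda1, the farthest of the 13. The summit lay inside the annotated AspRS gene, upstream of an internal TSS. MetRS, for methionine, had 92.8 (chr2R:18850498-18850913, rank 3600), ArgRS-m had 90.5 (chr3R:7886674-7887089, rank 3663) and CysRS-m had 89.2 (chr2R:14161157-14161572, rank 3713). Those 3 peaks overlapped no peak in either replicate list, although the ranked candidates of each replicate, the list before the reproducibility threshold, held entries there. For MetRS these had 49.2 in replicate 1 and 43.3 in replicate 2, for ArgRS-m 38.2 and 56.4, and for CysRS-m 35.1 and 51.8. Their irreproducible discovery rate (IDR) in the single replicates was above the threshold of 0.01 each time, between 0.0162 and 0.92, whereas in the combined list it was 0.00183 for MetRS, 0.00364 for ArgRS-m and 0.00401 for CysRS-m. CysRS-m was also missing from the conservative list, and it had a second peak with a signal of 2.06. MetRS lay opposite CG15084, ArgRS-m opposite CG17816 and CysRS-m opposite O-fut1, the fucosyltransferase that modifies Notch.

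**Figure D1:**
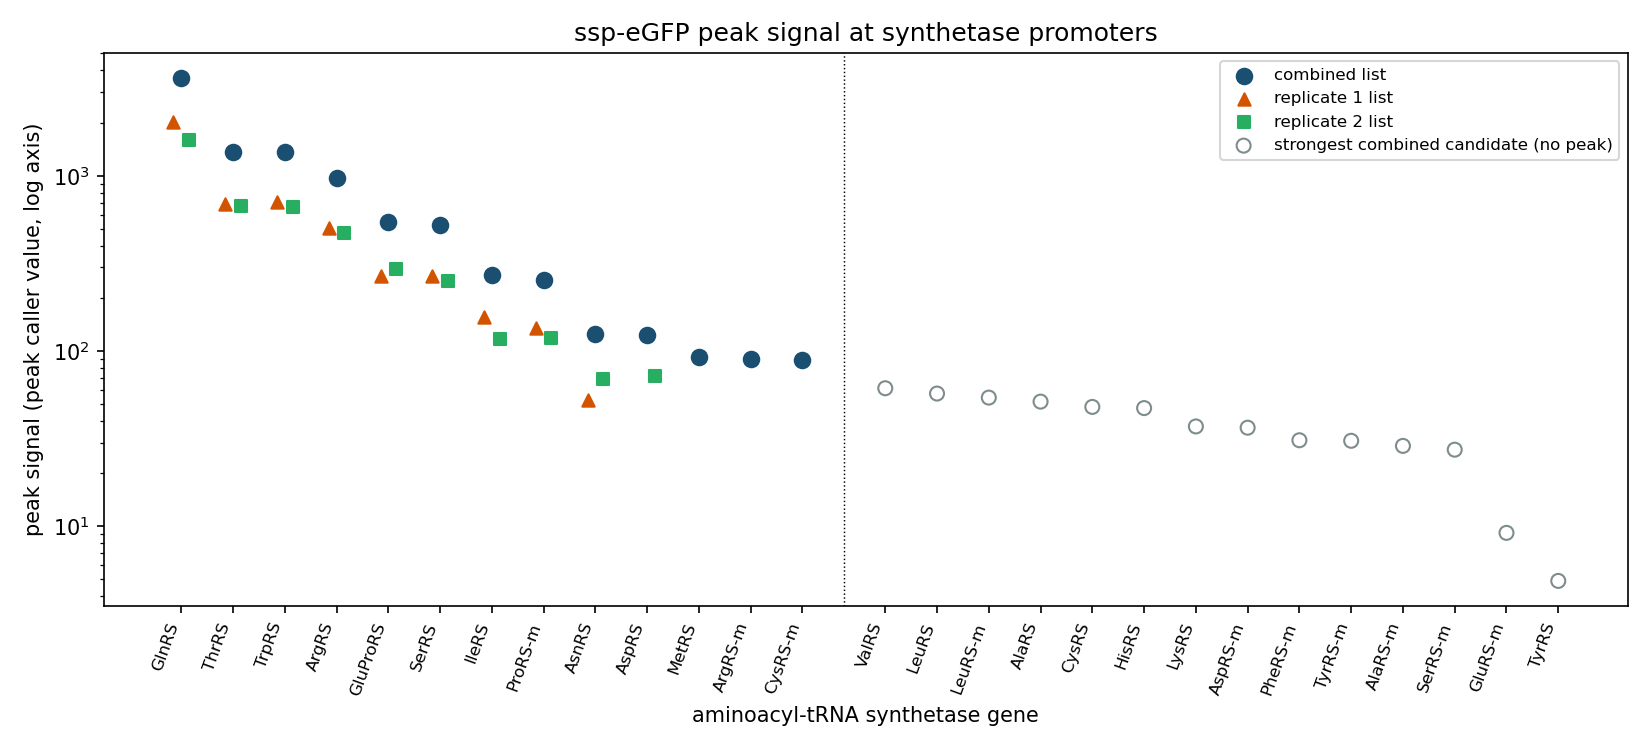
Peak signal on a log axis for the 13 synthetase genes with a promoter peak (left of the dotted line, filled symbols for the combined, replicate 1 and replicate 2 lists) and the strongest combined candidate of 14 genes without a peak (right, open circles). GlnRS stands highest at 3607, MetRS, ArgRS-m and CysRS-m have no symbol for either replicate, and the open circles run between 61.3 and 4.88.

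The plot of signals by gene shows a wide spread among enzymes that do the same kind of reaction. The strongest peak per gene had a median of 272 over the 13 synthetase genes, with a range of 89.2 to 3607, against a median of 189 over all protein-coding genes with a peak, whose quartiles were 116 and 390. GlnRS, ThrRS and TrpRS were above the signal of 983 that marks the top 10% of all genes with a peak, and ArgRS was just under it. Above the upper quartile there were 6 synthetase genes, and below the lower quartile there were 3, namely MetRS, ArgRS-m and CysRS-m. The median was 90.5 for the 3 mitochondrial genes, against 531 for the 10 genes without the suffix, and with only 3 genes this says no more than their own values. In the curve of all genes by signal, the synthetases lay from near its foot to near its top.

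**Figure D2:**
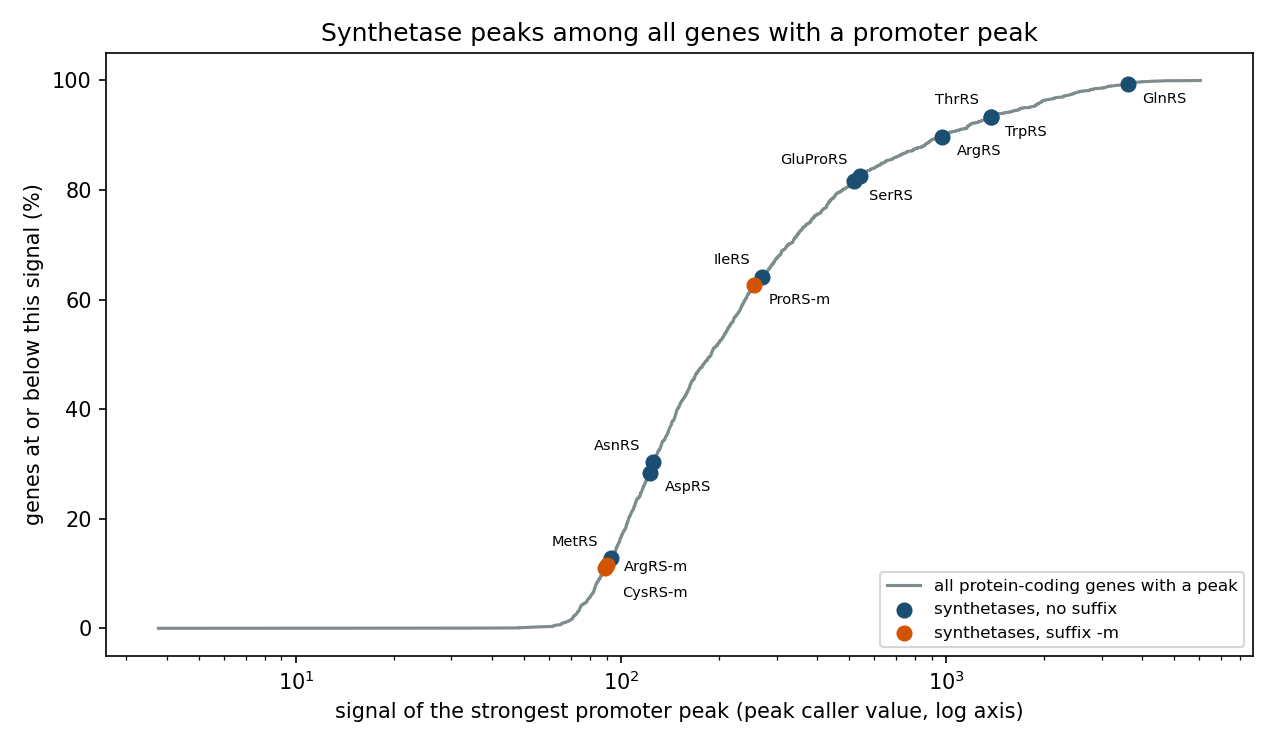
Share of all protein-coding genes with a promoter peak (line) whose strongest signal is at or below the value on the log axis, with the 13 synthetase genes marked on it. Blue points are genes without the suffix and orange points are mitochondrial genes. GlnRS lies at the top, and ArgRS-m and CysRS-m lie with MetRS at the low end.

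Among the genes with a peak in both replicate lists, the difference between replicates was small beside the difference between genes. Being called in both lists itself favours similar signals. Over the 9 genes in both replicate lists the log2 ratio of replicate 2 to replicate 1 had a median of -0.10 and an SD of 0.24, with a range of -0.42 to 0.40. Of the genes left out, ArgRS-m (38.2 and 56.4) and CysRS-m (35.1 and 51.8) had replicate candidates further apart than that range. MetRS (49.2 and 43.3) did not, and AspRS had no candidate in replicate 1. Over all 1615 promoter peaks in both lists the median was -0.19 and the SD 0.31. GluProRS and AsnRS had the higher signal in replicate 2, and the other 7 had it in replicate 1. These ratios hold any difference in scale between the lists. The replicate summits of the 9 genes were 2 to 56 bp apart, with a median of 15 bp, and 7 were within 20 bp. The share backed by both replicate lists, 9 of 13, was close to that of all promoter peaks, 69.1%.

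All 13 synthetase peaks also lay within 500 bp of a TSS of another protein-coding gene, on the opposite strand. Of all genes with a peak, 58.4% had a strongest peak that was shared with another protein-coding gene on either strand. A peak so placed cannot be assigned to 1 gene of the pair. By distance, 6 of the 13 were nearer to the other gene (ArgRS, ArgRS-m, AspRS, CysRS-m, GlnRS and ProRS-m), and 7 were nearer to the synthetase. Over all genes with a peak, 30% had one nearer to another gene.

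Except at SerRS, the summit fell in the gap between the paired TSSs. The summit position relative to the synthetase TSS had a median of 107 bp upstream, with 12 of 13 upstream, against a median of 121 bp upstream and 89.9% upstream over all genes with a peak. In 11 of the 13 it lay 50 to 200 bp upstream, against 54.1% of all genes with a peak. Between the paired TSSs of these 12 genes the gap was 115 to 486 bp long, with a median of 286 bp, and over all 747 promoter peaks that fell between a pair of TSSs it had a median of 306 bp. In 6 of the 12 (ArgRS, ArgRS-m, GlnRS, MetRS, ProRS-m and TrpRS) the summit lay between 40 and 60% of the way across the gap, against 31.3% of the 747. ThrRS and AsnRS had it well towards the synthetase, and AspRS towards its neighbour Nmda1. The partner genes whose roles are given above belong to ribosome maturation, membrane traffic, the cytoskeleton, import of small nuclear ribonucleoproteins and Notch modification.

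**Figure D3:**
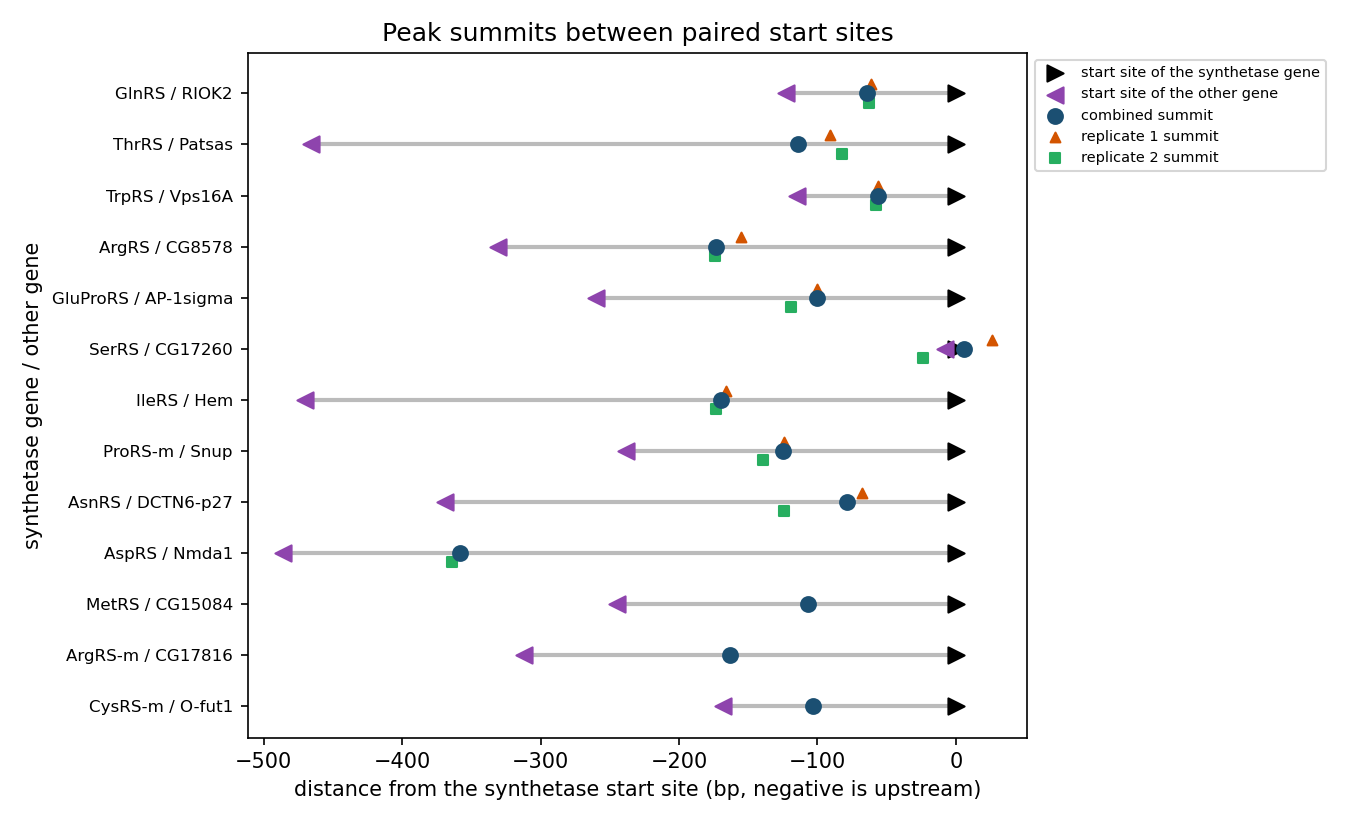
Position of the peak summit between the TSS of each synthetase gene (black arrowhead, at 0) and that of the neighbouring gene (purple arrowhead), in bp with upstream negative, for the combined list (circle) and each replicate list (triangle, square). The summit is inside the gap in 12 of 13 pairs, close to the middle for GlnRS, TrpRS, ArgRS and ProRS-m, and beyond both TSSs for SerRS.

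The drawing of summits between paired start sites led to a split of the genes that was chosen after their peaks had been seen. A head-to-head partner was defined as a protein-coding gene on the opposite strand whose TSS lies up to 1000 bp upstream of any TSS of the gene. From those TSSs the pair is transcribed away from a shared gap. At AspRS the gap with Nmda1 lies inside the AspRS gene, upstream of an internal TSS. The closest partner of AspRS, Lfg with a gap of 38 bp, did not share the peak. Of the 33 synthetase genes, 23 had such a partner, and 13 of these (56.5%) had a peak. Of the 10 without one, 0 had a peak: AlaRS, CysRS, AspRS-m, GluRS-m, IleRS-m, MetRS-m, PheRS-m, SerRS-m, TrpRS-m and ValRS-m. Over all protein-coding genes the shares were 38.1% with a partner and 11.8% without. Among genes with any ranked candidate within 500 bp, 13 of 21 synthetase genes with a partner had a peak and 0 of 6 without one. Over all such genes the shares were 46% and 17.1%. All 13 peaks were already known to be shared with an opposite-strand gene, so the 0 restates that and this restriction could not change it. The rule also counts a shared peak for both genes, which can raise the shares with a partner. With each peak given to its nearest TSS alone, 7 of 23 synthetase genes with a partner had one, beside 15.4% of all protein-coding genes.

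The mitochondrial genes had a peak at 3 of 15 (20%), near the 21.3% of all protein-coding genes, and the genes without the suffix at 10 of 18 (55.6%). A partner was present at 7 of the 15 mitochondrial genes and at 16 of the 18 genes without the suffix. Within the genes that had a partner, a peak was present at 3 of 7 mitochondrial genes (42.9%) and at 10 of 16 genes without the suffix (62.5%), against 38.1% of all protein-coding genes with a partner. Neither difference between the mitochondrial genes and the others was tested, nor was the part of the layout in it. A related set of genes for the same organelle, the mitochondrial ribosomal protein genes, had a peak at 26 of 73 (35.6%), at 25 of 58 with a partner and at 1 of 15 without. The eIF and eEF translation factor genes had a peak at 18 of 51 (35.3%), at 12 of 25 with a partner and at 6 of 26 without. The synthetases thus had a share of peaks near that of both sets, and the difference between them was not tested.

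**Figure D4:**
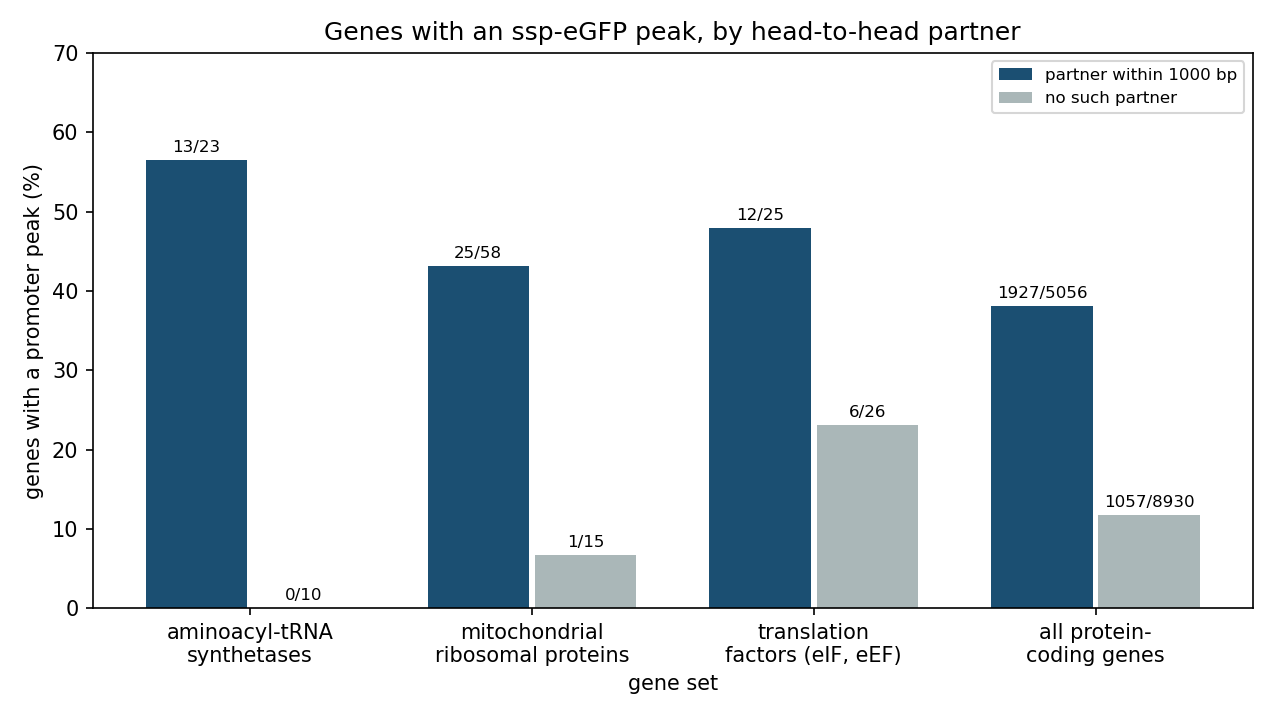
Percent of genes with a promoter peak, for genes with a head-to-head partner within 1000 bp (dark bars) and without one (pale bars), with the counts above each bar. Synthetase genes had a peak at 13 of 23 and 0 of 10, and all protein-coding genes at 1927 of 5056 and 1057 of 8930.

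The 20 synthetase genes without a peak were AlaRS, CysRS, GlyRS, HisRS, LeuRS, LysRS, TyrRS and ValRS, and 12 of the 15 mitochondrial genes. Of the 20, 14 had a candidate within 500 bp in the combined ranking, with signals of 4.88 to 61.3 and a median of 36.8. These all lay under the lowest of the 13 strongest peaks, 89.2 at CysRS-m, although the list was thresholded on IDR and not on signal. AlaRS came closest by IDR, with 0.0522 and a signal of 51.4 at 61 bp upstream, and ValRS had the highest signal, 61.3, with an IDR of 0.703. GlyRS, AsnRS-m, IleRS-m, MetRS-m, TrpRS-m and ValRS-m had no combined candidate, and AsnRS-m and IleRS-m had none in any of the 3 ranked lists.

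A close head-to-head neighbour was also present at synthetase genes without a peak. The 10 genes with a partner and no peak were AlaRS-m, AsnRS-m, GlyRS, HisRS, LeuRS, LeuRS-m, LysRS, TyrRS, TyrRS-m and ValRS. Across the 20 genes the nearest combined summit was 859 to 18658 bp from a TSS, with a median of 6501 bp. LeuRS-m had the nearest, with a signal of 577 at 859 bp upstream. That summit lay beyond the TSS of its partner Dhc64C, which is 166 bp upstream of LeuRS-m, and so outside the gap of the pair. Among the genes with a peak, AspRS, at 358 bp, was the farthest inside the 500 bp rule. AlaRS had a summit with a signal of 99.5 at 1073 bp upstream, within the promoter window of Rcd4 and CG13392. ValRS-m was the only one of the 20 with a summit inside the gene, with a signal of 62.5 at 2282 bp downstream of the TSS. An absent peak is an absence from a thresholded list of whole embryos: binding in few cells or at low level could not be seen, and the depth behind the lists is unknown.

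The DNA under the summits was AT-rich, as it was under promoter peaks in general. The 101 bp around the summit had a median of 28.7% G or C over the 13 genes, with a range of 12.9% at ProRS-m to 50.5% at ArgRS-m, against a median of 33.7% and quartiles of 27.7% and 42.6% over all 2338 promoter peaks. The promoters, taken as 250 bp before to 50 bp after the TSS, had a median of 36.3% in synthetase genes with a peak, 35.2% in those without and 38% over all protein-coding genes. Single promoters ranged over 26 to 48% with a peak and 22 to 48% without, so the groups overlapped.

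Few of the 12 motifs searched were in those 101 bp windows. All were sought on both strands, and a match is a run of letters, not a bound site. ATCGAT, the DRE core, was in 2 of 13 windows, GlnRS and TrpRS, against 12.1% of all promoter peaks. The full DRE, TATCGATA, which contains the core, was in TrpRS only, against 5.0%. TATAAA was in 5 of 13 (AsnRS, AspRS, CysRS-m, ProRS-m and SerRS), against 21.0%. The other 9 were in no window. Among all promoter peaks, these were held by 2.1% for motif 1 (GGTCACAC), 0.984% for the E-box CACGTG, 3.93% for the E-box CAGCTG and 1.54% for the ATF4 motif TGATGNAA. The shares were 2.44% for the E2F motif TTNNCGCG, 0.599% for GAGAGAG, 0.171% for the TCF motif CTTTGATC, 2.87% for TGAGTG and 2.18% for the AP-1 motif TGANTCA. With 13 windows, the absence of a motif that few promoter peaks hold says little.

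The motifs were more often present in longer stretches. In windows reaching 100 bp to each side of the 13 summits, CAGCTG was in 3 (ArgRS, IleRS and TrpRS), against 9.67% of all promoter peaks. In the 300 bp promoters of the 33 synthetase genes, CAGCTG was in 7 of the 13 with a peak and 9 of the 20 without, against 17.7% of all protein-coding promoters. ATCGAT was in 5 with a peak and 4 without (23.3% of all promoters), TATCGATA in 3 and 2 (9.36%), and TATAAA in 7 and 11 (45.8%). CAGCTG was thus found at synthetase promoters with and without a peak. GGTCACAC was in 2 and 2 (7.7%), TGAGTG in 1 and 2 (11.9%), CACGTG in 1 and 1 (4.2%) and GAGAGAG in 1 and 0 (5.87%). TGATGNAA (4.07%) and TTNNCGCG (9.41%) were in 0 and 1 each, and CTTTGATC (0.71%) and TGANTCA (6.18%) were in none.

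Genes that act beside the synthetases were counted by 8 lists of roles, and 23 of their 64 genes had a peak, against 21.3% of all protein-coding genes. Most of the 64 had a head-to-head partner, against 36.2% of all protein-coding genes. Over all protein-coding genes, 38.1% of those with a partner and 11.8% of those without had a peak. The part of this layout in the count of 23 was not tested. Some synthetase genes fall outside the symbol rule. beta-PheRS, a subunit of the cytosolic phenylalanine enzyme, had a signal of 1796 at 53 bp upstream and no head-to-head partner, unlike the 13 above. The gene of the other subunit, alpha-PheRS, had no peak. Slimp, a synthetase-like protein of the mitochondrion, had 72.4 and no head-to-head partner either, whereas alpha-PheRS had a partner. beta-PheRS and Slimp thus differed from the genes of the 33 without a partner, where 0 of 10 had a peak. alpha-PheRS was like the 10 genes of the 33 that had a partner and no peak. AIMP1, AIMP2 and AIMP3, the scaffold of the complex in which several synthetases assemble, had 0 of 3.

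Delivery of charged tRNA to the ribosome had 5 of 8 genes with a peak. eEF1alpha1, the elongation factor that carries charged tRNA, had a signal of 2534, and the subunits of its exchange factor eEF1delta and eEF1gamma had 740 and 267. eEF1alpha2 had 101 and the mitochondrial factor mEFTu1 had 81.2. In the mitochondrion some glutaminyl-tRNA is made by amidation of a mischarged tRNA, and 2 of the 3 genes of that enzyme had a peak, GatC with 285 and GatA with 121. The list for tRNA modification had 7 of 18, and the 6 with the highest signal were Tcs5 with 1909, the Elongator subunits Elp5 with 877, Elp6 with 311 and Elp4 with 288, Nsun5 with 302 and the thiolation gene Ctu2 with 74.3. Nsun5 was counted in this list, though it is known as a methyltransferase of ribosomal RNA. The peaks of Tcs5, Elp4, Elp5, Elp6, Nsun5 and GatC were shared with another protein-coding gene, so they cannot be assigned to a single gene. At Elp4 the summit was nearer to the other gene, Vps52.

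The other 3 lists were end processing, the response to uncharged tRNA, and transport. tRNA end processing and splicing had 3 of 18, the ligase gene RtcB with 174, Rpp20 with 157 and RNaseZ with 148. The response to uncharged tRNA had 2 of 8, crc, the fly ATF4, with 304 at 478 bp upstream, and eIF2gamma with 139, while the sensor kinase Gcn2 had none. These lists are small, and the counts for end processing and for uncharged tRNA are near the 21.3% of all protein-coding genes. The peaks of Rpp20, RNaseZ and eIF2gamma were likewise shared with another protein-coding gene. At eIF2gamma the summit was nearer to the other gene, Set. tRNA transport and quality control had 2 of 3, Ranbp21 with 127 and the RNA-binding protein gene La with 124. The bars of these lists show peaks in 7 of the 8, with the scaffold genes at 0.

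**Figure D5:**
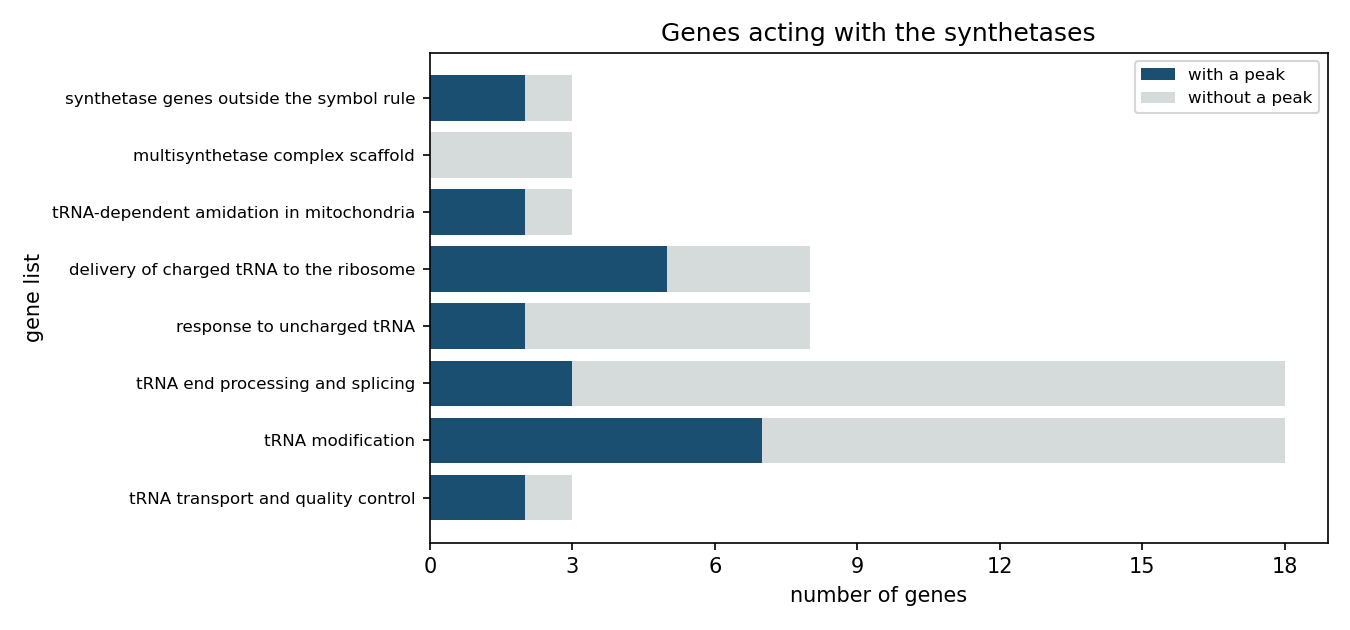
Number of genes with a promoter peak (dark) and without one (pale) in 8 lists of genes that act with the synthetases. Delivery of charged tRNA had 5 of 8, tRNA modification 7 of 18, tRNA end processing 3 of 18 and the multisynthetase scaffold 0 of 3.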

How the data were processed

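Chromatin immunoprecipitation was sequenced from 2 biological replicates of ssp-eGFP embryos, fragmented to 200 to 800 bp per the labels. The authors called peaks on dm6 from each replicate and from both together, always against a control, with ranking by IDR, per the deposited notes. Neither aligner nor peak caller is named in those notes or in the labels. Column 7 of each list is the peak signal as deposited, with no scaling between lists stated, so it was used to rank within a list. The ranked lists hold the minus log10 of the global IDR as deposited by the authors (−log10), which was converted to an IDR and never falls below 1e-05. The lists hold no read counts, so depth is unknown and no interval from counting is given. Left out were 16 per-sample columns that no label ties to a replicate.

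The combined list of 4948 peaks was the main one; its conservative version held 4719, replicate 1 held 3606 and replicate 2 held 3437 peaks. Summits were set against TSSs of Ensembl release 115, whose coordinates equalled RefSeq's for all 33 genes. Coordinates count from 1. A replicate signal is that of the replicate peak overlapping the combined peak by at least 1 base. Every synthetase gene is named, and of the role lists up to 6 genes with the highest signal plus the genes without a peak as counts. Here alpha-PheRS, the AIMP genes and Gcn2 go beyond that and were named after their values were seen. Of the list names, 14 matched no gene symbol and 1 matched by synonym. Genes and lists were chosen with earlier results of these data known. No test was made, since there is 1 group. Alternatives were other peak lists, windows and TSS rules, and wider motif windows. The scripts were tested on simulated data and used Python 3.11.15, numpy 2.4.6, pandas 2.3.3 and matplotlib 3.10.9.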

Additional observations from a re-analysis of the deposited data

How the results depend on the processing

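No paired analysis was possible because the samples form 1 group. The 13 of 33 synthetase genes with a peak became 8 when peaks had to be above the median signal of the list. They became 7 when each peak was given to its nearest TSS alone, and 9 to 10 over single replicates. The share of all protein-coding genes also fell from 21.3%, to 14.2% above the median signal and 15.4% for the nearest TSS. It was 17.3% without replicate 1, 18% without replicate 2 and 15.1% for peaks in both replicate lists. The same 8 and 7 were the counts among genes with a head-to-head partner, and the count without one was 0 under every alternative run. Alternatives that only drop peaks, TSSs or genes from the main run could give no other count. A pair distance of 500 bp could not either, since the gap to the closest partner was at most 470 bp for the 13 genes. The count of mitochondrial genes, 3, was 1 in each single replicate list, 1 above the median signal, 1 for peaks in both replicate lists and 0 for the nearest TSS. The genes of the role lists with a peak, 23, became 15 above the median signal. The median signal of 272 became 521 in the conservative list and for the nearest TSS, 755 above the median signal, 396 for windows of 200 or 1000 bp and for the outermost TSS, and 542 for peaks in both replicate lists; over single replicates it was 269 to 273, on those lists' own scale. The 6 genes whose peak was nearer to another gene were 1 to 6 over single replicates, 3 above the median signal and 3 for peaks in both replicate lists. Windows with any motif, 7 of 13, became 12 with 100 bp each side of the summit and 13 in the 300 bp promoter. By construction these alternatives keep fewer peaks or search longer DNA; which further causes act was not tested. At 1000 bp LeuRS-m was gained, through a summit that lies beyond the TSS of its partner. At 200 bp and with the outermost TSS AspRS was lost, and the conservative list lost AspRS and CysRS-m. Of 100 alternative values, 78 stayed near the main one, 22 moved and 0 reversed. Near is a loose label here, since the count of 13 that became 9 was still put there. The 100 also hold values that could not change, such as the 0 without a partner where peaks were only dropped. Others are repeats, such as the counts with a partner, so the 100 are not separate checks. The split by head-to-head partner and its alternatives were chosen after seeing the data.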
